A study of Mus musculus with 18 samples.

Results

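Macrophages detect microbial products and cell damage through inflammasomes, and the chromatin around 7 genes of that system was followed here by Assay for Transposase-Accessible Chromatin (ATAC)-seq. The genes were the sensors Nlrp3 and Aim2, the adaptor Pycard (ASC), the caspases Casp1 and Casp4 (caspase-11), the pore-forming protein Gsdmd and the cytokine gene Il18. Every accessible region (peak) that overlapped one of these genes extended by 25 kb on each side was taken, in mm9 coordinates with GENCODE M1 gene models. This gave 153 of the 194284 peaks of the study, with 28 at Nlrp3, 46 at Aim2, 13 at Pycard, 19 at Casp1, 26 at Casp4, 18 at Gsdmd and 20 at Il18. Casp1 and Casp4 are neighbours and shared 17 peaks, which count for both genes. Peaks were assigned to genes by position, without use of their counts.

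The cells were bone marrow-derived macrophages (BMDMs) from male Il10-/- mice on a C57BL/6J background, grown for 6 days with L929-conditioned medium. All 18 libraries carried the Il10 knockout, so any IL-10 in the cultures had been added to them. The 6 groups had 3 libraries each, 1 from each of 3 mice aged 12 weeks. They were unstimulated cells, cells with (+)-JQ1 (500 nM), an inhibitor of the bromodomains of BET proteins, cells with IL-10 (10 ng/mL), cells with lipopolysaccharide (LPS, 50 ng/mL), and cells with LPS after (+)-JQ1 or after IL-10. Pre-treatment lasted 12 h and LPS or PBS was then present for 4 h. The peak counts do not check the knockout allele.

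As background, a canonical inflammasome forms when a sensor such as NLRP3, which responds to ion fluxes and membrane damage, or AIM2, which binds double-stranded DNA in the cytosol, recruits ASC and through it caspase-1. Caspase-1 cleaves pro-IL-18, pro-IL-1β and gasdermin D, whereas caspase-11 binds LPS in the cytosol and cleaves gasdermin D directly. The N-terminal part of gasdermin D then forms pores in the plasma membrane, which ends in pyroptosis. In macrophages a first signal such as LPS raises transcription of several of these components before any inflammasome assembles, which is called priming. BET proteins bind acetylated histones at active promoters and enhancers, and IL-10 restrains macrophage activation through STAT3.

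Total counts in peaks ranged from 12020526 to 25908198 per library, and all 153 peaks of the 7 genes passed the filter on low counts. The mean normalized count of these peaks ranged from 10.2 to 856 with a median of 56.3, and the median of all peaks was 32.9. All 6 macrophage markers examined had a promoter peak, with a median of 6.78 to 35.8 CPM over libraries (CPM, counts scaled to the library total), and Cd3e, Cd3g and Col1a2 had none. Of markers of other cells, 1 of 3 T cell genes (Lck, 17.7 CPM), 2 of 2 dendritic cell genes (10.7 to 31.1), 2 of 3 fibroblast genes (14.7 to 22.1) and 3 of 3 neutrophil genes (2.15 to 26.6) had one, against a median of 4.67 CPM over all promoter peaks, and their part in the results was not tested. In such bulk libraries, fewer cells of a type and less accessibility per cell cannot be told apart. Unstimulated replicate 1 was the shallowest library and had the highest scaling factor, and losses of a call without it are given beside the peaks named by rule.

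Of the 153 peaks, 42 lay within 1000 bp upstream to 100 bp downstream of an annotated transcription start and 111 were distal. The promoter share was 27.5%, against 18.9% of all peaks. By position, 58 peaks touched an exon, 49 lay in an intron and 46 were intergenic. One peak held the transcription start of each gene except Pycard, whose nearest peak began 265 bp away, and these 7 peaks are called start peaks below. For Aim2 and Il18 the RefSeq start matched to mm9 was used, because the GENCODE M1 model of Aim2 begins far upstream of it and that of Il18 begins downstream of it.

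The following stretches of mm9 sequence, on the plus strand, show the DNA under peaks on which the results turn. The first 3 are the 250 bases before the GENCODE starts of Nlrp3 (chr11:59354820-59355069), Casp4 (chr9:5308578-5308827) and Gsdmd (chr15:75692519-75692768), in which capitals mark matches to a kappaB motif on either strand. The others are the central 300 bases of the peak with the largest LPS response at Aim2 (chr1:175421370-175421669, capitals mark an ISRE match), of the element upstream of Pycard that was higher with IL-10 (chr7:135162723-135163022, capitals mark a STAT match), and of the peak in an intron of Casp12, in the Casp4 region, that was higher with LPS and IL-10 (chr9:5356859-5357158, capitals mark AP-1 matches). The windows were chosen with their matches known, and a peak's centre need not be its summit.
Nlrp3 upstream: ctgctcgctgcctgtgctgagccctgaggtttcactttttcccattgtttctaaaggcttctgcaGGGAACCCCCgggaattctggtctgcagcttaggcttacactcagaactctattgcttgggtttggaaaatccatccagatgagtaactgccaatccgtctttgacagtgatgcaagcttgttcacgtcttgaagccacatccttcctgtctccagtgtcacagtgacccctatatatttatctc
Casp4 upstream: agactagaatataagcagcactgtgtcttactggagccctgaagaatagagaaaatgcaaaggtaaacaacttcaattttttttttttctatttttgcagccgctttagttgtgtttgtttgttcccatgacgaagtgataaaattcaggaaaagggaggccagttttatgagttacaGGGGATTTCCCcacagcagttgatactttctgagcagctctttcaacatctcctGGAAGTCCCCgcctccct
Gsdmd upstream: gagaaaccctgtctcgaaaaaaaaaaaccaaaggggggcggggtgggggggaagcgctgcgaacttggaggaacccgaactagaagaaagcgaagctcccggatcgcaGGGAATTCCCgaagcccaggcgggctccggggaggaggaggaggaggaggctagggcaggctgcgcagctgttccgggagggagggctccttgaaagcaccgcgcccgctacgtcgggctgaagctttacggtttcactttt
Aim2, over an exon of Gm4955: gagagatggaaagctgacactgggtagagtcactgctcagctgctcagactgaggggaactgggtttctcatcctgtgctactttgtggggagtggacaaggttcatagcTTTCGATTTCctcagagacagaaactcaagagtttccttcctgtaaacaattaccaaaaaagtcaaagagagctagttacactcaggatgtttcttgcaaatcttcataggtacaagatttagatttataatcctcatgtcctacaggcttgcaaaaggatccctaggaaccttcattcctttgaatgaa
Pycard upstream element: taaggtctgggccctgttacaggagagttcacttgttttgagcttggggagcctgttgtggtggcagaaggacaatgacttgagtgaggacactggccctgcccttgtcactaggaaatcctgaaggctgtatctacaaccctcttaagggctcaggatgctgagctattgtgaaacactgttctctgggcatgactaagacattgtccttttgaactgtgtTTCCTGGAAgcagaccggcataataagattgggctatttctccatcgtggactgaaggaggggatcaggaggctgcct
Casp12 intron: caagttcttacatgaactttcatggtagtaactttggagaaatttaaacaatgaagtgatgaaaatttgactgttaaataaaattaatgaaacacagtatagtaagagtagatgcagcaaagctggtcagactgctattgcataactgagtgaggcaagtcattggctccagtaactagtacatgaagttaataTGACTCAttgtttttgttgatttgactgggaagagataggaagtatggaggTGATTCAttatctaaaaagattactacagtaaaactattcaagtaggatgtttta

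The kappaB motif was searched by name as a 10-base pattern, AP-1 as TGANTCA, STAT as TTCNNNGAA and ISRE as a pair of GAAA with any 2 bases between, all on both strands. The first kappaB match lay 185 bases before the start at Nlrp3 (counted to its first base), 142 before that of Gsdmd and 72 before that of Casp4, where 3 matches included a pair that overlapped. The 250 bases before the Il18 start (chr9:50362555-50362804) held no match to these motifs. Among 32536 windows of the same length before RefSeq starts (GRCm38), 7.28% held a kappaB match. In the central 300 bases, AP-1 matches occurred in 18.3% of the 153 peaks and 12.1% of all peaks, and kappaB matches in 4.58% and 5.98%. STAT matches occurred in 9.8% of the 153 peaks and 8.74% of all peaks, and ISRE matches in 6.54% and 4.4%. Of the 77 peaks that rose with LPS, 3.9% held a kappaB match and 13% an AP-1 match, against 8.11% and 15.3% of all peaks that rose with LPS. Of the 41 that were lower with LPS and (+)-JQ1, 4.88% held an AP-1 match, against 12.3% of all such peaks. A match describes letters in a window and is not a site.

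Accessibility at the 7 loci rose widely with LPS. Differentially accessible regions (DARs) were called at a false discovery rate (FDR, Benjamini-Hochberg over all 194230 peaks tested) under 0.05 with a log2 fold-change beyond 0.5 in either direction. With LPS, 77 of 153 peaks were higher, which is 50.3%, and 2 were lower. Over all peaks tested, 11.7% were higher and 10.2% lower. The median log2 fold-change of the 153 peaks was 0.63, against -0.03 over all peaks. Promoter and distal peaks contributed alike, with 21 of 42 promoter peaks and 56 of 111 distal peaks higher, against 14.3% and 11.1% of all peaks of these classes. Replicate 2 ran on different sequencing lanes with and without LPS, while replicates 1 and 3 each ran on 1 lane, and with lane as a covariate 78 peaks were called in place of 79.

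The gains with LPS were uneven between genes. Il18 had 14 of 20 peaks higher, Nlrp3 had 19 of 28, Aim2 had 26 of 46, Casp4 had 13 of 26 and Casp1 had 8 of 19. Gsdmd had 4 of 18 peaks higher and 1 lower, and Pycard had 1 of 13 higher and 1 lower. Both lower peaks, named after their values were seen, lay in neighbouring genes, 1 over an exon of Zc3h3 (chr15:75668973-75669813, -1.27 ± 0.41, FDR = 0.014) and 1 over an exon of Trim72 (chr7:135149424-135152517, -0.51 ± 0.19, FDR = 0.042). DESeq2 called 1 lower peak at Gsdmd and 0 at Pycard, so it did not make the Trim72 call. At Nlrp3, 16 consecutive peaks over 40.2 kb were called higher, at Aim2 18 over 50.2 kb and at Il18 8 over 12.8 kb. By edgeR no peak of Nlrp3, Aim2, Casp1, Casp4 or Il18 was called lower with LPS, and 0 were by DESeq2, with 1, 1, 1, 1 and 0 at an unadjusted p under 0.05.

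(+)-JQ1 before LPS lowered 41 of the 153 peaks relative to LPS alone and raised 3, which is 26.8% lower against 3.49% of all peaks, and 1.96% higher against 1.74%. The median log2 fold-change was -0.23, against -0.00 over all peaks. IL-10 before LPS lowered 42 peaks and raised 6, with shares of 27.5% and 3.92% against 4.51% and 4.26% of all peaks, and its median was -0.34 against -0.01. Both comparisons use the same LPS libraries, so they are not independent of each other. With (+)-JQ1, 36 of the 41 lower peaks were distal, 32.4% of the 111 distal peaks against 3.55% of all distal peaks, and 5 of 42 promoter peaks were lower (11.9% against 3.22%). With IL-10, 33 distal and 9 promoter peaks were lower, which is 29.7% against 4.65% and 21.4% against 3.94%.

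The lower calls lay at 3 genes above all. With LPS and (+)-JQ1, Aim2 had 15 lower peaks, Nlrp3 13 and Il18 9, whereas Gsdmd had 3, Casp4 had 1 and Casp1 and Pycard had none. With LPS and IL-10 the numbers were 17 at Aim2, 12 at Nlrp3, 10 at Il18 and 3 each at Casp1 and Casp4, with none at Gsdmd or Pycard. The runs were long with (+)-JQ1, at 13 consecutive lower peaks over 32.5 kb at Nlrp3, 11 over 27.4 kb at Aim2 and 8 over 12.8 kb at Il18. Pycard moved the other way, with 3 peaks higher after (+)-JQ1 and 4 after IL-10, both in LPS-treated cells. For the counts of 0 from edgeR, DESeq2 also called 0; at an unadjusted p under 0.05 there were 1 lower peak at Casp1 and 0 at Pycard with (+)-JQ1, and 1 at Gsdmd and 0 at Pycard with IL-10.

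**Figure D1:**
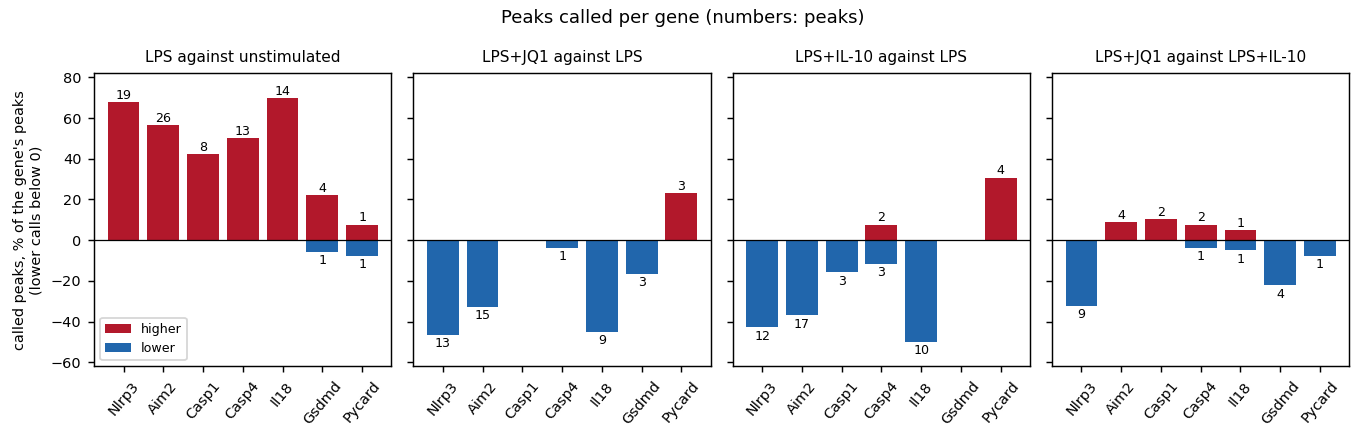
Share of each gene's peaks called higher (red, above 0) or lower (blue, below 0), in percent of its peaks, for 4 comparisons; numbers give the peaks. With LPS the bars of Il18, Nlrp3 and Aim2 reach 14, 19 and 26 peaks, and with LPS and (+)-JQ1 lower calls gather at Nlrp3 (13), Aim2 (15) and Il18 (9).

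Without LPS both treatments changed fewer of these peaks. (+)-JQ1 raised 12 and lowered 10 of the 153, which is 7.84% against 7.85% of all peaks and 6.54% against 3.15%, and this split turned on the scaling: it was 15 higher and 7 lower with DESeq2 size factors, 2 and 34 with total counts, and 1 and 9 with loess offsets. IL-10 raised 12 and lowered 7, which is 7.84% against 5.16% and 4.58% against 3.5%, with splits of 14 and 5, 3 and 14, and 4 and 6 under the same settings. Scaling by total counts moved the median of all peaks by -0.28 for (+)-JQ1, -0.21 for IL-10 and -0.23 for LPS. For LPS the median of the 153 peaks stayed 0.66 above that of all peaks.

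Nlrp3, a sensor gene whose transcription priming is known to raise, lies at chr11:59355070-59380458 on the plus strand. Its start peak (chr11:59354752-59357893, over an exon) held 24.9, 30.1 and 34.2 CPM in unstimulated libraries, 49.6, 44.7 and 44.6 with (+)-JQ1, and 42.3, 40 and 37.6 with IL-10. With LPS it held 55.3, 51.7 and 48.5 CPM, with LPS and (+)-JQ1 66.2, 52.7 and 48.4, and with LPS and IL-10 53.1, 48.8 and 47.9. The unstimulated libraries were lowest and overlapped with no other group, and the 3 LPS groups overlapped. The log2 fold-change was 0.80 ± 0.14 (SE) with LPS (FDR = 1.3e-06) and 0.10 ± 0.13 when (+)-JQ1 came first (FDR = 0.77).

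The body of Nlrp3 behaved differently from its start. All 9 peaks between the start peak and the gene end were higher with LPS, with log2 fold-changes of 1.32 to 2.09, and all 9 were lower with LPS and (+)-JQ1 than with LPS, at -0.86 to -2.05. IL-10 lowered 7 of the 9. At the exonic peak chr11:59361492-59362920 the counts were 1.61, 1.54 and 1.86 CPM unstimulated, 6.34, 7.49 and 7.65 with LPS, 2.3, 1.04 and 1.9 with LPS and (+)-JQ1, and 3.3, 2.78 and 4.0 with LPS and IL-10. Libraries with (+)-JQ1 alone held 0.954, 1.05 and 1.31 CPM. The LPS and (+)-JQ1 libraries thus overlapped the unstimulated ones and those with (+)-JQ1 alone. The LPS and IL-10 libraries stood between these groups and LPS. The changes were 2.09 ± 0.24 with LPS (FDR = 2.8e-12), -2.05 ± 0.23 with (+)-JQ1 (FDR = 4.1e-11) and -1.08 ± 0.21 with IL-10 (FDR = 0.00011).

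The largest LPS response of the locus lay just past the gene end, 26.3 kb from the start, at an intergenic peak (chr11:59380968-59381761). It held 0.669, 1.15 and 0.877 CPM unstimulated and 5.19, 5.84 and 4.48 with LPS, 1.84, 0.709 and 1.4 with LPS and (+)-JQ1, and 3.15, 2.32 and 3.45 with LPS and IL-10. LPS raised it by 2.50 ± 0.29 (FDR = 3.9e-12), (+)-JQ1 before LPS gave -2.00 ± 0.27 (FDR = 1.3e-08), and IL-10 gave -0.79 ± 0.24 (FDR = 0.02), which was lost without replicate 1 or replicate 2. The 2 pre-treatments differed there, at -1.21 ± 0.28 for LPS and (+)-JQ1 against LPS and IL-10 (FDR = 0.0014). Of the 28 peaks of Nlrp3, 9 were lower with LPS and (+)-JQ1 than with LPS and IL-10, 6 of them in the gene body, and none was higher by edgeR, by DESeq2 or at an unadjusted p under 0.05. Without LPS, (+)-JQ1 lowered 3 body peaks, among them chr11:59370086-59372646 at -0.98 ± 0.23 (FDR = 0.0011), whose unstimulated libraries held 3.48, 3.68 and 4.77 CPM and whose (+)-JQ1 libraries held 2.56, 0.84 and 2.51. That call was lost without replicate 2, at -0.71. IL-10 raised an upstream peak at -6.8 kb (chr11:59347832-59348629) by 0.67 ± 0.18 (FDR = 0.0074), a call kept in 8 of 13 alternatives and lost with total counts, loess offsets and without replicate 1, replicate 2 or unstimulated replicate 1 (0.47 to 0.82 over the alternatives).

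Aim2, the cytosolic DNA sensor, has a start peak at chr1:175350538-175352012. It held 9.37, 9.78 and 13.0 CPM unstimulated, 21.2, 20.7 and 21.3 with (+)-JQ1, and 13.4, 13.3 and 14.0 with IL-10. The LPS libraries held 16.4, 15.6 and 14.3, those with LPS and (+)-JQ1 17.7, 21.3 and 18.8, and those with LPS and IL-10 16.5, 16.3 and 12.7. Here (+)-JQ1 without LPS gave the highest mean, at 0.97 ± 0.14 over unstimulated (FDR = 3.4e-07), and LPS gave 0.52 ± 0.14 (FDR = 0.0039). The LPS call at this peak was lost with total counts, loess offsets, a minimum of 10 counts, and without replicate 1, replicate 2 or unstimulated replicate 1.

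The largest LPS response among the 46 Aim2 peaks lay 70.8 kb from the start, past the gene end, at a peak over an exon of the gene Gm4955 (chr1:175421004-175422034), whose central sequence is printed above. It rose from 2.54, 2.47 and 2.14 CPM to 15.7, 13.1 and 15.4 with LPS, a change of 2.63 ± 0.19 (FDR = 5.8e-23). With LPS and (+)-JQ1 it held 6.98, 10.2 and 7.68 CPM, below every LPS library, at -0.83 ± 0.16 (FDR = 0.0001). With LPS and IL-10 it held 12.8, 8.86 and 11.7 CPM, at -0.40 ± 0.15 (FDR = 0.085). Nearness does not assign the peak to Aim2 rather than to Gm4955.

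Past the end of Aim2, 9 of 10 peaks were higher with LPS and 8 were lower after (+)-JQ1, and within the gene 13 of 18 were higher and 6 were lower. The intronic peak chr1:175379942-175382507, with 13.4, 14.5 and 16.5 CPM unstimulated and 33.4, 31.4 and 34.1 with LPS, fell to 25.6, 20.5 and 20.6 when IL-10 came first, at -0.57 ± 0.13 (FDR = 0.0014, lost without replicate 2 or replicate 3), and held 23.0, 29.3 and 25.7 after (+)-JQ1, at -0.34 ± 0.13 (FDR = 0.13). An exonic peak 41.3 kb from the start (chr1:175391553-175392587) held 0.468, 0.495 and 0.603 CPM unstimulated, 2.07, 3.5 and 3.52 with LPS, 0.537, 0.819 and 0.969 after (+)-JQ1 and 1.22, 1.56 and 1.56 after IL-10. It showed the largest effect of (+)-JQ1 at this gene, at -1.89 ± 0.34 (FDR = 3.1e-05). Upstream of the RefSeq start and inside the long GENCODE model, the peak chr1:175304030-175305114 fell from 4.41, 4.0 and 3.94 CPM with LPS to 1.78, 1.62 and 2.02 with IL-10, at -1.18 ± 0.25 (FDR = 0.0004). Without LPS, IL-10 lowered chr1:175377045-175379658 from 4.22, 3.46 and 4.05 CPM to 1.92, 2.04 and 2.49, at -0.86 ± 0.22 (FDR = 0.0058), a call lost without replicate 1 or replicate 2.

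**Figure D2:**
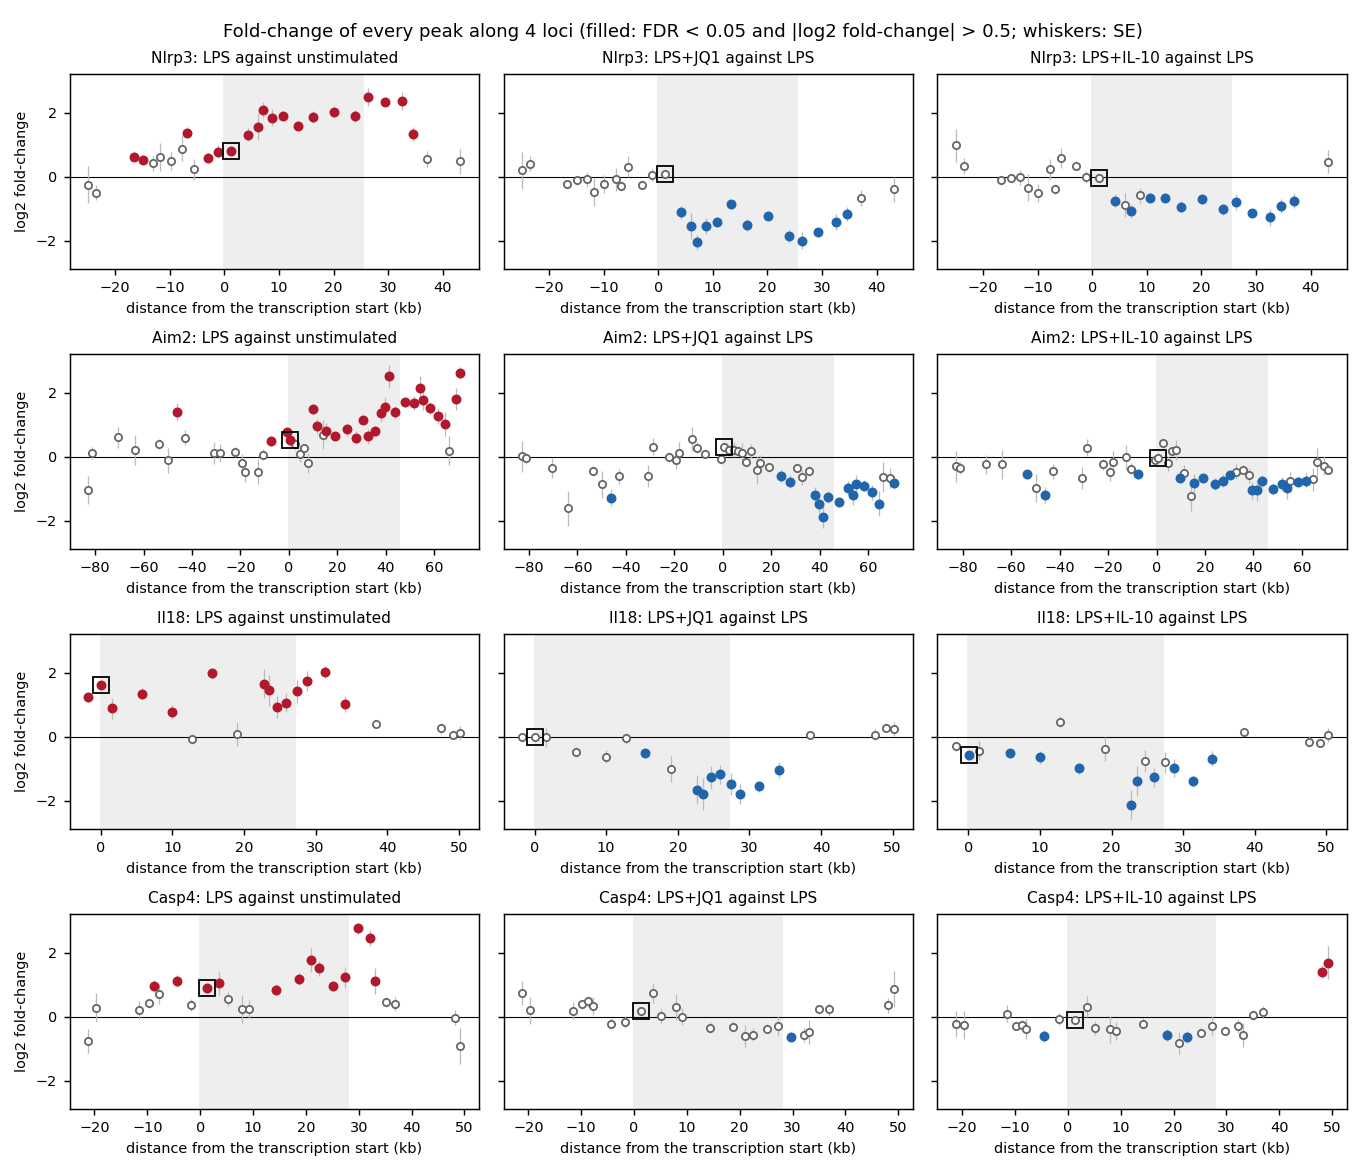
Log2 fold-change (points, whiskers SE) of each peak against its distance from the transcription start in kb at Nlrp3, Aim2, Il18 and Casp4 for 3 comparisons; grey marks the stretch from the start to the gene end, squares the start peak, and filled points the called peaks. At Nlrp3, Aim2 and Il18 the start peaks are not called with LPS and (+)-JQ1 against LPS (0.10, 0.32 and -0.02), while called peaks beyond them reach -2.05, -1.89 and -1.79.

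Pycard encodes ASC, which links the sensors to caspase-1, and lies on the minus strand at chr7:135135617-135137381. The peak nearest its start (chr7:135137646-135140098) held 4.48, 5.55 and 4.44 CPM unstimulated, 6.38, 5.95 and 6.12 with (+)-JQ1, and 4.72, 4.81 and 4.84 with IL-10. It held 4.32, 5.89 and 4.24 with LPS, 9.98, 7.53 and 7.1 with LPS and (+)-JQ1, and 6.2, 5.62 and 5.37 with LPS and IL-10. LPS left it at a log2 fold-change of -0.00 ± 0.18 (FDR = 0.99), and the LPS and (+)-JQ1 libraries stood above all LPS libraries, at 0.75 ± 0.17 (FDR = 0.0022). That call was lost without replicate 1, at 0.52. The exonic peak of the gene (chr7:135134858-135136783) was also higher with (+)-JQ1, at 0.51 ± 0.14 without LPS (FDR = 0.0074) and 0.59 ± 0.14 with it (FDR = 0.0026). The call without LPS was kept in 6 of 13 alternatives, with values down to 0.17 (loess offsets), and was lost also with total counts, a minimum of 10 counts, only the groups compared, and without replicate 1 (0.30), replicate 2 or unstimulated replicate 1 (0.36). The call with LPS was lost without replicate 2. Its libraries held 10.0, 13.0 and 15.8 CPM unstimulated, 20.3, 16.0 and 19.1 with (+)-JQ1, 13.7, 13.4 and 14.3 with LPS, and 21.9, 18.8 and 21.8 with both.

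An intergenic element upstream of Pycard, at -25.5 kb from its start (chr7:135161737-135164007) followed IL-10. It held 3.61, 2.75 and 4.82 CPM unstimulated, 7.47, 7.49 and 5.54 with IL-10, 3.49, 4.64 and 2.15 with LPS, and 11.1, 9.33 and 11.3 with LPS and IL-10. Every library with IL-10 was above every library of the matching group without it, by 0.87 ± 0.20 without LPS (FDR = 0.0015) and 1.61 ± 0.19 with LPS (FDR = 9.7e-11), the former lost without replicate 2, at 0.61. With (+)-JQ1 it held 5.43, 5.11 and 3.55 CPM, and with LPS and (+)-JQ1 5.45, 4.26 and 4.96. The direct comparison of LPS and (+)-JQ1 with LPS and IL-10 gave -1.12 ± 0.18 (FDR = 2.5e-06). A further pair of peaks that were higher after IL-10 in LPS-treated cells, named after their values were seen, were an intergenic one at -4.7 kb (chr7:135141153-135142961, 0.79 ± 0.23, FDR = 0.016) and the Trim72 peak (0.66 ± 0.19, FDR = 0.013).

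Casp1 and Casp4 stand next to each other on the plus strand, at chr9:5298517-5307265 and chr9:5308828-5336783. The Casp1 start peak (chr9:5298438-5299748) held 13.3, 13.8 and 19.7 CPM unstimulated, 26.5, 27.8 and 28.5 with (+)-JQ1, and 22.3, 21.9 and 22.3 with IL-10. It held 20.1, 21.5 and 21.9 with LPS, 27.5, 29.9 and 25.6 with LPS and (+)-JQ1, and 19.9, 18 and 14.6 with LPS and IL-10. Casp1 thus had its highest start-peak values with (+)-JQ1, with or without LPS. (+)-JQ1 without LPS gave 0.82 ± 0.14 (FDR = 5.3e-06), IL-10 gave 0.50 ± 0.14 (FDR = 0.011), and LPS gave 0.43 ± 0.14 (FDR = 0.016), below the minimum fold for a call. LPS and (+)-JQ1 exceeded LPS and IL-10 by 0.66 ± 0.14 (FDR = 0.00031).

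The Casp4 start peak (chr9:5308191-5312127), which covers the kappaB matches printed above, rose from 22.2, 26.8 and 30.8 CPM to 46.2, 48.2 and 53.9 with LPS, at 0.89 ± 0.14 (FDR = 6.6e-08). After (+)-JQ1 the LPS-treated libraries held 57.7, 58.6 and 52.2 CPM, and after IL-10 51.3, 47.5 and 39.0, at 0.18 ± 0.13 (FDR = 0.52) and -0.11 ± 0.13 (FDR = 0.69). Without LPS the libraries held 35.8, 36.8 and 37.7 CPM with (+)-JQ1 and 36.7, 35.8 and 35.8 with IL-10, all above the unstimulated ones, with changes of 0.47 ± 0.14 and 0.44 ± 0.14 that did not reach the minimum fold.

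The largest LPS response at the 7 loci was an intergenic peak just past the end of Casp4, 29.8 kb from the start (chr9:5337234-5340035). It rose from 2.61, 3.57 and 3.12 CPM to 20, 21.1 and 22.9, at 2.77 ± 0.17 (FDR = 1.2e-26). IL-10 without LPS also raised it, to 4.23, 5.3 and 7.05 CPM, at 0.82 ± 0.19 (FDR = 0.0017, lost without replicate 3), and (+)-JQ1 libraries held 2.09, 2.24 and 1.99. With LPS and (+)-JQ1 it held 15.7, 12.8 and 13.5 CPM, at -0.62 ± 0.15 (FDR = 0.0026), a call lost without replicate 2 or replicate 3, and with LPS and IL-10 19.9, 14.1 and 13.3. All 9 libraries with LPS, pre-treated or not, stayed above all 9 without it.

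Inside the Casp1 and Casp4 region the LPS gains were smaller. The intronic peak chr9:5330168-5332443 rose from 2.54, 1.92 and 2.14 to 6.06, 5.94 and 6.75 CPM, at 1.51 ± 0.22 (FDR = 1.4e-08), and held 4.11, 4.75 and 3.26 after IL-10, at -0.63 ± 0.20 (FDR = 0.025), a call lost with total counts and without replicate 1 or replicate 3. Peaks that (+)-JQ1 lowered without LPS lay in the same stretch, with chr9:5320699-5325614 at -0.76 ± 0.21 (FDR = 0.0053), chr9:5317447-5318598 at -1.01 ± 0.32 (FDR = 0.023) and chr9:5335528-5336851 at -1.30 ± 0.45 (FDR = 0.038). The first of these held 7.76, 3.68 and 4.93 CPM unstimulated and 4.35, 2.66 and 2.51 with (+)-JQ1, so the groups overlapped. IL-10 gave 3.29, 3.4 and 3.99 CPM there, at -0.60 ± 0.20 (FDR = 0.035). Without unstimulated replicate 1 all 4 calls were lost, and the (+)-JQ1 values were -0.44, -0.69 and -0.72 and the IL-10 value -0.27. The IL-10 call was lost also by DESeq2 and without replicate 1 (-0.20) or replicate 2, and the (+)-JQ1 call at the first peak without replicate 3. The second peak lost its call with loess offsets and without each of the 3 replicates, and the third with loess offsets and without replicate 1 (-0.78) or replicate 2.

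An intronic peak of Casp12, 48.2 kb from the Casp4 start (chr9:5356635-5357382), rose with the combination of LPS and IL-10. It held 2.68, 2.91 and 2.08 CPM unstimulated, 3.54, 3.21 and 4.32 with IL-10, 1.61, 2.75 and 3.23 with LPS, and 7.21, 5.56 and 7.12 with both. The combined libraries were above every other group, since those with (+)-JQ1 held 3.28, 4.06 and 4.23 CPM and those with LPS and (+)-JQ1 3.91, 2.73 and 3.06. IL-10 before LPS gave 1.41 ± 0.21 over LPS (FDR = 2.2e-07), and LPS and (+)-JQ1 lay below LPS and IL-10, at -1.06 ± 0.21 (FDR = 0.0001).

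Gsdmd, the pore-forming substrate of both caspases, had its largest LPS response at its start peak (chr15:75691987-75693350, over an exon). The peak held 7.96, 8.9 and 11.6 CPM unstimulated, 12.2, 16.1 and 13.7 with (+)-JQ1, and 13.9, 15.8 and 16.5 with IL-10. It held 25.7, 21.3 and 20.4 with LPS, 19.7, 17.5 and 20.2 with LPS and (+)-JQ1, and 18.6, 16.6 and 19.5 with LPS and IL-10. The log2 fold-change with LPS was 1.24 ± 0.15 (FDR = 1e-11), and neither pre-treatment changed the LPS level past the threshold, at -0.23 ± 0.14 (FDR = 0.39) and -0.30 ± 0.14 (FDR = 0.16).

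The next peak (chr15:75693860-75703145, named after its values were seen) covers the rest of the gene and runs past the gene end at chr15:75697834. Its counts are thus not those of the gene alone. This peak held 13.2, 12.0 and 10.7 CPM unstimulated, 18.8, 21.0 and 17.6 with LPS, 9.9, 13.6 and 12.0 after (+)-JQ1 and 16.0, 16.7 and 18.1 after IL-10. It fell with (+)-JQ1 before LPS, at -0.69 ± 0.14 (FDR = 0.00037), to values that overlapped the unstimulated ones, and IL-10 gave -0.18 ± 0.14 (FDR = 0.47). Without LPS, (+)-JQ1 gave -0.45, which was not called. Downstream of Gsdmd a pair of intergenic peaks separated the 2 treatments. The first, 11.2 kb from the start (chr15:75703339-75704524), held 2.61, 2.42 and 3.01 CPM unstimulated, 5.42, 6.09 and 7.05 with LPS, 3.07, 2.18 and 2.33 with LPS and (+)-JQ1, and 5.79, 4.17 and 5.79 with LPS and IL-10. After (+)-JQ1 the LPS-treated libraries overlapped the unstimulated ones, at -1.31 ± 0.21 (FDR = 2.4e-06), whereas IL-10 gave -0.23 ± 0.19 (FDR = 0.53). The direct comparison gave -1.08 ± 0.21 (FDR = 0.00011). Libraries with (+)-JQ1 alone held 1.73, 2.03 and 1.78 CPM, below all those with LPS and (+)-JQ1. The LPS response did not differ with (+)-JQ1 past the threshold (-0.77 ± 0.33, FDR = 0.19). The second, 13.6 kb from the start (chr15:75705991-75706820), held 4.75, 3.41 and 5.97 CPM unstimulated and 7.23, 7.24 and 8.93 with IL-10, a gain of 0.73 ± 0.19 (FDR = 0.005) that was lost without replicate 2. Under LPS it held 4.87, 5.99 and 4.9 CPM, with (+)-JQ1 2.38, 2.51 and 2.71, and with IL-10 8.28, 5.21 and 7.99. This peak did not pass the test with LPS (0.16 ± 0.19, FDR = 0.59), but (+)-JQ1 before LPS lowered it, at -1.04 ± 0.21 (FDR = 0.00018), and the 2 pre-treatments differed by -1.49 ± 0.20 (FDR = 8.5e-09). A peak over an exon of the neighbour Zc3h3 (chr15:75671859-75674264) rose with (+)-JQ1 by 0.70 ± 0.14 (FDR = 4.7e-05), a call lost with total counts (0.42), with loess offsets (0.12) and without replicate 2.

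Il18 encodes the cytokine that caspase-1 matures. Its start peak (chr9:50362304-50363401), which also overlaps an exon of Bco2, held 8.57, 11.0 and 13.6 CPM unstimulated, 17.7, 19.4 and 17.9 with (+)-JQ1, and 14.6, 16.7 and 16.7 with IL-10. It held 35.0, 32.8 and 34.2 with LPS, 34.2, 34.4 and 32.2 with LPS and (+)-JQ1, and 26.2, 21.6 and 20.6 with LPS and IL-10. LPS raised it by 1.61 ± 0.14 (FDR = 2.2e-17), the largest change among the 7 start peaks. (+)-JQ1 before LPS left it at -0.02 ± 0.13 (FDR = 0.97), whereas IL-10 lowered it, at -0.57 ± 0.13 (FDR = 0.0014), and the 2 pre-treatments differed by 0.56 ± 0.14 (FDR = 0.0024). The IL-10 call was lost without replicate 2.

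Beyond its last exon the treatments met again. The intergenic peak 31.3 kb from the Il18 start (chr9:50392620-50395668) held 4.35, 3.52 and 4.99 CPM unstimulated, 3.7, 4.55 and 3.19 with (+)-JQ1, and 5.8, 3.4 and 4.32 with IL-10. It held 19.5, 16.5 and 16.3 with LPS, 8.44, 5.24 and 4.77 with LPS and (+)-JQ1, and 7.21, 6.14 and 6.57 with LPS and IL-10. All 6 libraries with a pre-treatment were below all 3 with LPS alone, at -1.55 ± 0.17 (FDR = 6.7e-12) for (+)-JQ1 and -1.39 ± 0.17 (FDR = 1.2e-10) for IL-10. The pre-treatments differed by -0.15 ± 0.18 (FDR = 0.69). Within the gene, 9 of 11 peaks were higher with LPS, and 6 were lower after each pre-treatment. The largest (+)-JQ1 effect of the locus in LPS-treated cells was past the gene end, at the intergenic peak chr9:50391112-50391999. This peak rose from 1.2, 0.824 and 0.822 to 2.8, 3.55 and 3.23 CPM with LPS and held 0.921, 1.09 and 0.776 after (+)-JQ1, at -1.79 ± 0.31 (FDR = 1.1e-05). Libraries with (+)-JQ1 alone held 0.656, 0.49 and 0.784 CPM there. Without LPS, (+)-JQ1 lowered the intronic peak chr9:50388003-50389347, at -1.05 ± 0.37 (FDR = 0.043), with overlapping libraries. That call was kept in 4 of 12 alternatives and was lost by DESeq2, with its size factors, with loess offsets, with only the groups compared, and without any of the 3 replicates or unstimulated replicate 1 (-0.63 without replicate 1).

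**Figure D3:**
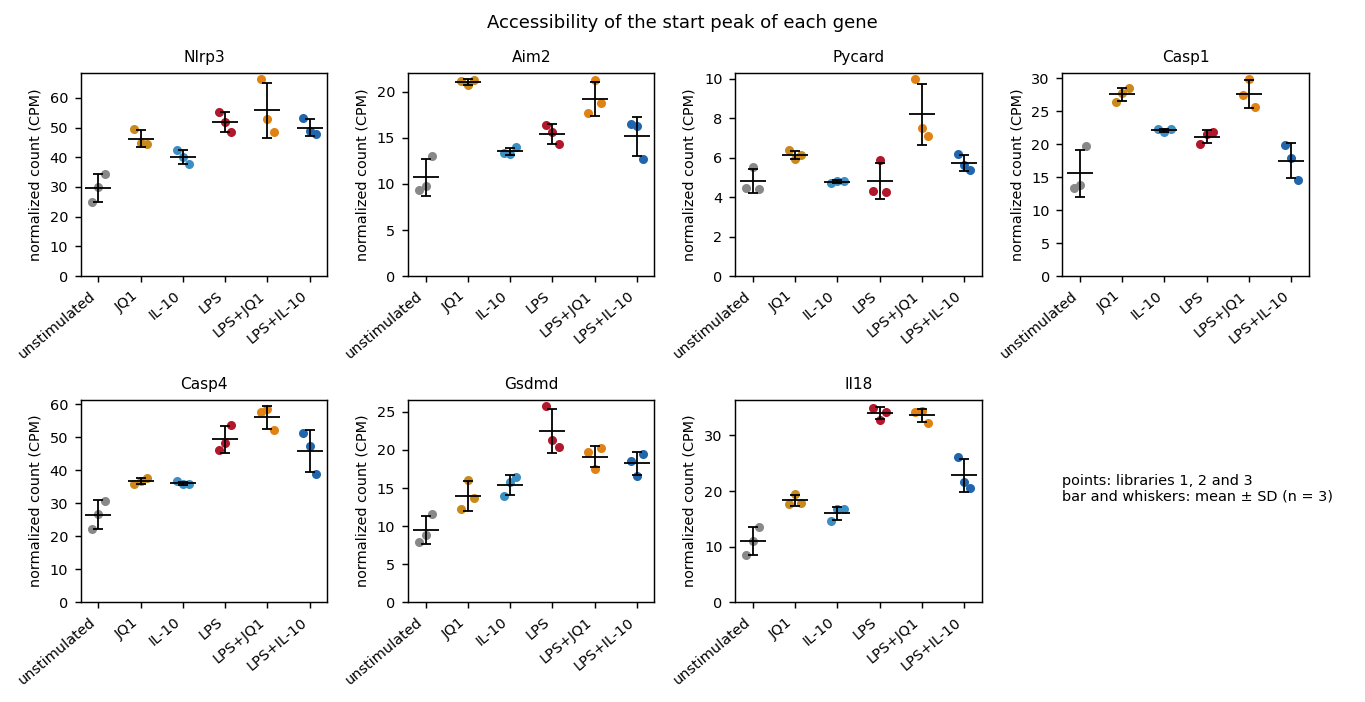
Normalized count (CPM) of the start peak of each gene in the 6 groups; points are the 3 libraries of a group and bars with whiskers the mean ± SD. Unstimulated libraries are low at Nlrp3 (24.9 to 34.2) and Il18 (8.57 to 13.6), and LPS with (+)-JQ1 stays at the LPS level at Il18 (32.2 to 34.4 against 32.8 to 35.0).

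Start peaks and the rest of each locus were also counted separately. Peaks were divided into the start peak, the gene body, the part past the gene end and the part before the start peak, a division made after values had been seen and given as a description. A peak that crosses the gene end, as at Gsdmd, was counted in the body. With LPS, 5 of 7 start peaks, 41 of 54 body peaks, 28 of 48 peaks past the end and 11 of 58 before the start were higher. Of all promoter peaks 14.3% were higher with LPS and of all distal peaks 11.1%, to which the part before the start came nearest. After (+)-JQ1, 0 of 7 start peaks, 22 body peaks, 18 past the end and 1 before the start were lower than with LPS alone. Of all promoter peaks 3.22% were lower in this comparison and of all distal peaks 3.55%, so 0 of 7 start peaks is no departure from the background. The same numbers for IL-10 were 1, 25, 15 and 4, against 3.94% and 4.65%. No start peak had an unadjusted p under 0.05 for a decrease with (+)-JQ1, and DESeq2 called 0. Peaks shared by Casp1 and Casp4 can fall into more than 1 class.

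Without LPS, (+)-JQ1 raised the start peaks of 5 genes, Nlrp3 by 0.64 ± 0.14, Aim2 by 0.97 ± 0.14, Casp1 by 0.82 ± 0.14, Gsdmd by 0.55 ± 0.15 and Il18 by 0.72 ± 0.15. In the bodies 2 of 54 peaks were higher and 8 lower, against 4.34% and 3.39% of all distal peaks. These start-peak calls moved with the scaling: 2 remained with total counts (Aim2 and Casp1), 1 with loess offsets (Aim2), where Nlrp3 reversed to -0.03, and 2 without replicate 2. The Gsdmd call was lost without unstimulated replicate 1 (0.45). Of all promoter peaks, 22.9% were higher with (+)-JQ1, against 23.8% of the 42 promoter peaks of the 7 genes. The share of a library's counts that lay in promoter peaks was also highest with (+)-JQ1, at 48.4 to 51.1%, against 40.8 to 45.5% in unstimulated libraries, and its part in the result was not tested. IL-10 raised 3 start peaks (Casp1, Gsdmd and Il18), and 8.72% of all promoter peaks were higher with it. None of the 3 was called with total counts, loess offsets or without replicate 2. Casp1 and Il18 were not called without unstimulated replicate 1 (0.40 and 0.38). For LPS, 2 of the 5 start-peak calls held with loess offsets, Gsdmd and Il18.

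The number of counts in the body divided by that in the start peak of the same library needs no scaling between libraries. At Nlrp3 this ratio was 1.42, 1.15 and 1.16 in unstimulated libraries, 0.67, 0.713 and 0.721 with (+)-JQ1, and 0.807, 0.953 and 0.97 with IL-10. It was 2.19, 2.79 and 2.4 with LPS, 0.93, 0.862 and 1.08 with LPS and (+)-JQ1, and 1.62, 1.46 and 1.42 with LPS and IL-10. LPS thus raised the weight of the body above that in any other group, and with (+)-JQ1 it lay below every unstimulated library, whereas the lowest LPS and IL-10 library equalled the highest unstimulated one.

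Aim2 was also highest with LPS, with mean ratios of 8.15 ± 1.12 unstimulated, 10.4 ± 0.841 with LPS, 6.53 ± 0.229 with LPS and (+)-JQ1 and 7.67 ± 0.845 with LPS and IL-10 (SD, n = 3). The Aim2 ratio was lowest with (+)-JQ1 alone, at 4.45 ± 0.146, below every library unstimulated or with LPS and (+)-JQ1. The shift with (+)-JQ1 was thus present without LPS. Il18 differed, as its start peak gained more than its body, and the ratio was 2.78, 1.98 and 1.69 unstimulated, 1.37, 1.5 and 1.35 with LPS, and 1.01, 0.938 and 0.935 with LPS and (+)-JQ1. It was 1.33, 1.21 and 1.32 with (+)-JQ1 alone. At 6 of the 7 genes the ratio with (+)-JQ1 alone lay below that of every unstimulated library. IL-10 before LPS left the Il18 ratio at 1.23, 1.53 and 1.51, overlapping LPS. The ratio was computed for the 7 genes alone, so its spread over all genes is not known here, and 22.9% of all promoter peaks were higher with (+)-JQ1 without LPS. With 3 libraries against 3 the exact permutation test cannot give a p below 0.1, so these are descriptions. The library-wide share of counts in promoter peaks was 46.0 to 48.0% with LPS and (+)-JQ1, 45.2 to 47.0% with LPS and 42.4 to 43.8% with LPS and IL-10.

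**Figure D4:**
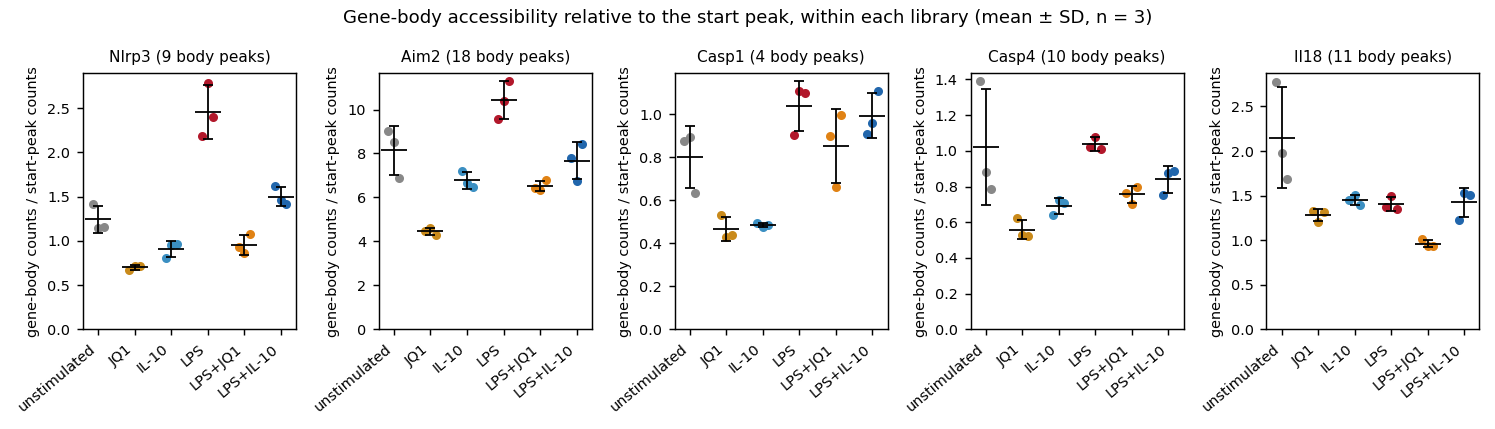
Counts in the gene-body peaks divided by counts in the start peak of the same library (no unit) at 5 genes; points are libraries and bars with whiskers the mean ± SD. At Nlrp3 the LPS libraries (2.19 to 2.79) stand above all others and the (+)-JQ1 libraries (0.67 to 0.721) below all others.

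**Figure D5:**
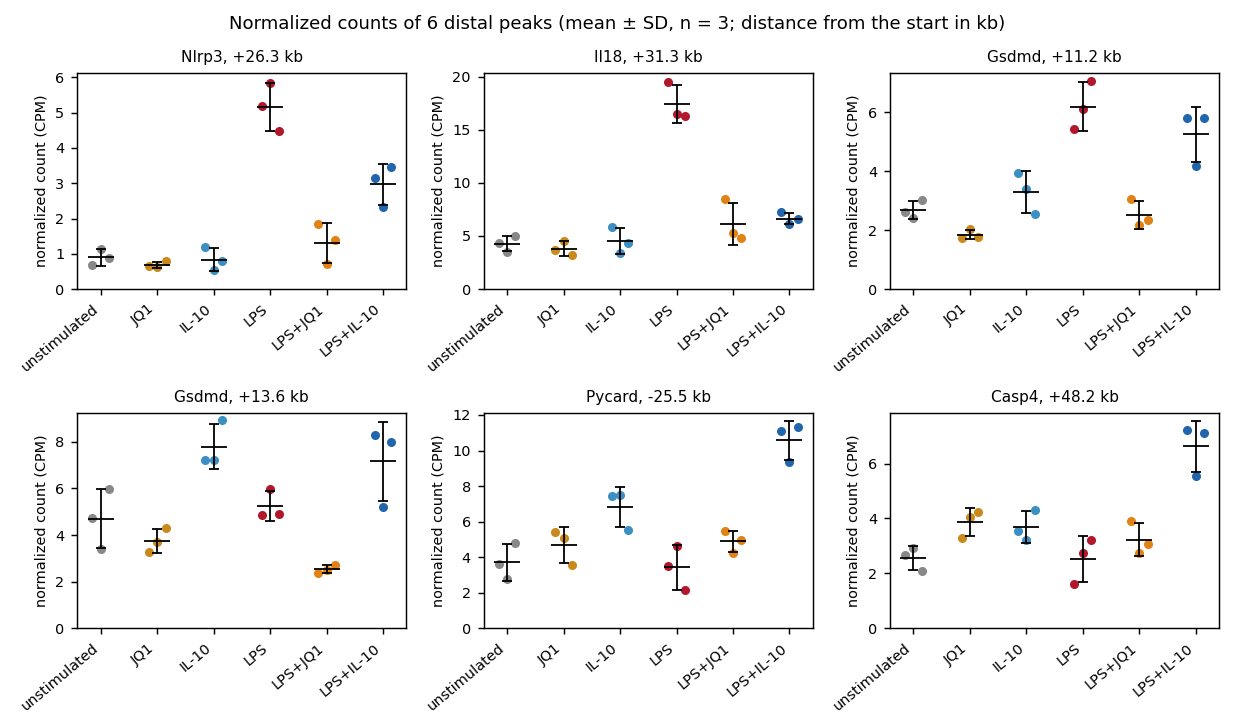
Normalized count (CPM) of 6 distal peaks in the 6 groups, with the distance from the gene's start in kb; points are libraries and bars with whiskers the mean ± SD. The Gsdmd peaks at 11.2 and 13.6 kb fall with LPS and (+)-JQ1 (2.18 to 3.07 and 2.38 to 2.71), and the Pycard element and the Casp12 intron peak are highest with LPS and IL-10 (9.33 to 11.3 and 5.56 to 7.21).

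The 2 treatments were also set against each other in LPS-treated cells over all peaks of the 7 genes. LPS and (+)-JQ1 was higher than LPS and IL-10 at 7 of 153 peaks and lower at 16, which is 4.58% against 3.43% of all peaks and 10.5% against 4.68%. With total counts the split was 4 and 18. The lower calls were 9 at Nlrp3, 4 at Gsdmd and 1 each at Pycard, Casp4 and Il18, and the higher calls were 4 at Aim2, 2 shared by Casp1 and Casp4, and 1 at Il18. Calls at Nlrp3 were thus lower after (+)-JQ1, whereas Aim2 went both ways, with 4 called peaks higher, a median of -0.01 in the gene body and all 10 peaks past the gene end below 0 (-0.77 to -0.12) but not called. The 4 Aim2 peaks, named after their values were seen, were intronic, at chr1:175338650-175341613, chr1:175341797-175344660, chr1:175359556-175361506 and chr1:175361535-175363006, with differences of 0.65, 0.64, 0.50 and 0.68. At Aim2 no peak was lower by edgeR or DESeq2, with 6 at an unadjusted p under 0.05.

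Whether the LPS response itself differed with a pre-treatment was tested by an interaction, the LPS change with the treatment minus the LPS change without it. For (+)-JQ1, 18 of the 153 peaks had a smaller response and 0 a larger one, which is 11.8% against 3.19% of all peaks and 0% against 0.649%. DESeq2 gave 19 and 0, and 5 peaks had an unadjusted p under 0.05 for a larger response. For IL-10, 18 had a smaller and 1 a larger response, 11.8% against 5.9% and 0.654% against 2.01%. Among promoter peaks the share with a smaller response was 14.3% of the 42 against 11.2% of all for (+)-JQ1 and 16.7% against 16.9% for IL-10, and among distal peaks it was 10.8% against 1.33% and 9.91% against 3.33%. With total counts the splits were 1 larger and 5 smaller for (+)-JQ1 and 6 and 12 for IL-10. The median interaction was -0.28 for (+)-JQ1 and -0.34 for IL-10, against 0.02 and 0.04 over all peaks. A rise without LPS enters this difference as much as a loss with LPS: at the Il18 start peak the interaction with (+)-JQ1 was -0.73 ± 0.20 (FDR = 0.019), although the LPS and (+)-JQ1 libraries overlapped the LPS libraries.

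The summed CPM over all peaks of a gene gives the order of the 6 conditions. At Nlrp3 the sums were 122 to 152 in unstimulated libraries, 153 to 167 with (+)-JQ1, 159 to 169 with IL-10, 192 to 231 with LPS and (+)-JQ1, 233 to 263 with LPS and IL-10, and 320 to 348 with LPS. Only the groups with (+)-JQ1 and with IL-10 alone overlapped. At Aim2 the sums were 175 to 177 unstimulated, 175 to 183 with IL-10, 191 to 196 with (+)-JQ1, 216 to 247 with LPS and IL-10, 226 to 262 with LPS and (+)-JQ1, and 316 to 321 with LPS. Here the first pair and the groups with LPS and a treatment overlapped. Il18 ran from 98.3 to 125 unstimulated through 148 to 159 with LPS and IL-10 and 166 to 183 with LPS and (+)-JQ1 to 196 to 205 with LPS. In these 3 genes LPS alone was the highest group and overlapped with none. The sums here and below were computed only for the genes studied, so their spread over all genes is not known. Their order was not tested and is a description. The sums also depend on the scaling between libraries. The scaling factors were 1.24, 1.15 and 1.04 in unstimulated libraries and 0.942, 0.981 and 0.993 with LPS.

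Casp1 and Casp4 were not ordered that way. The Casp1 sums were 72.6 to 84.4 unstimulated, 96.5 to 122 with LPS and IL-10, 123 to 142 with LPS and 139 to 147 with LPS and (+)-JQ1, the last pair overlapping. At Casp4, LPS (176 to 210) overlapped both LPS and (+)-JQ1 (190 to 200) and LPS and IL-10 (146 to 185). The groups with LPS and a pre-treatment did not overlap each other, and all LPS groups were above 100 to 109 unstimulated. Gsdmd spanned a narrow range, with 130 to 164 unstimulated, 173 to 187 with LPS and 188 to 191 with IL-10 as the highest. Pycard was highest with LPS and (+)-JQ1 (117 to 138) and LPS and IL-10 (111 to 123), which overlapped, and LPS (86.1 to 92.3) overlapped unstimulated (78.5 to 95.5). Casp1 and Casp4 share peaks, so their sums are not separate evidence.

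Other genes of the pathway, from a list of 31 whose member Casp12 has peaks only in the Casp4 region, had 581 tested peaks of their own. With LPS, 164 were higher and 43 lower, which is 28.2% and 7.4% against 11.7% and 10.2% of all peaks. After (+)-JQ1, 6 were higher and 60 lower than with LPS, which is 1.03% and 10.3% against 1.74% and 3.49% of all peaks. After IL-10, 14 and 66 were, or 2.41% and 11.4% against 4.26% and 4.51%. Among the 28 genes with a promoter peak, LPS raised 9, including Il1b (2.64), the gene of the other main caspase-1 substrate cytokine, Gbp2 (2.09) and Gbp5 (1.89), guanylate-binding proteins that act on bacterial membranes, and Il1a (1.89), all as log2 fold-changes. (+)-JQ1 lowered the promoters of Il1a (-1.17) and Il1b (-1.38) in LPS-treated cells, and IL-10 those of Gbp5, Il1a and Il1b. Of all promoter peaks, 14.3% were higher with LPS. In LPS-treated cells 3.22% of them were lower with (+)-JQ1 and 3.94% with IL-10. The Il18 start peak held 34.2, 34.4 and 32.2 CPM after (+)-JQ1, within the spread of the LPS libraries, as given above.

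Over the 18 libraries, the peak named for its LPS response at each gene except Pycard was compared with 22739 promoter peaks by the correlation of log2 CPM, as a description of likeness in which libraries share depth and condition. The 3 closest on other chromosomes were Chmp4b (0.96), 2210016L21Rik and Ddx58 (both 0.95) for Nlrp3 and Lrch3, Parp9 and Irg1 (all 0.97) for Aim2. For Casp1 they were Gm826 (0.96), Tnpo3 and Rhbdf2 (both 0.95), and for Casp4 Vasp and Traf2 (both 0.97) and Hdac1 (0.96). For Gsdmd they were Glipr2, Tcirg1 and BC018242 (all 0.95), and for Il18 Dync1h1 (0.96), Apobr and Cln3 (both 0.95).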

How the data were processed

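ATAC-seq was performed on 18 libraries of Il10-/- BMDMs in 6 groups of 3 (50 bp paired-end reads). The authors processed reads with PEPATAC (0.9.0), aligned them to mm9 with Bowtie2, kept uniquely mapped reads, called peaks per library with MACS2, merged them into a union set and classed peaks as promoter (1000 bp upstream to 100 bp downstream of a start) or distal with ChIPseeker. The deposited values are raw read counts per peak and library, and the counting tool is not given in the sources used here. The promoter and distal tables repeat the same counts. The table holds 6 further columns of values that belong to another condition and were not used here.

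Counts were analysed with edgeR (4.0.16, R 4.3.3) by quasi-likelihood tests with TMM scaling and filterByExpr, in 1 fit over all 18 libraries, with Benjamini-Hochberg adjustment over all 194230 peaks tested. A peak was called at FDR under 0.05 and an absolute log2 fold-change above 0.5. CPM are counts divided by the TMM-scaled library total, and the SE is the log2 fold-change divided by the root of F. Each gene's peak with the highest count at an annotated start, and its called peak with the largest change in each of 5 comparisons (mean normalized count of at least 20), were named. These peaks, the gene lists and the 7 genes were chosen with earlier results of these data known. For Aim2 the first part of that rule gives an intronic peak 30.5 kb from the RefSeq start, and both it and the start peak are described. Motifs and sequences were read from mm9. The labels name 3 mice, and same-numbered libraries were taken to come from the same mouse. Deviations from group means correlated at 0.00573 on average for same-numbered pairs (45) and -0.00286 for others (90). The LPS test was checked on simulated counts for 193263 peaks, of which 200 were given a true log2 change of 1.5. It recovered 199 of them with 7 false calls. The interaction of LPS with (+)-JQ1, simulated likewise, recovered 170 of 200 with 10. The changed peaks were drawn only from peaks with higher counts, and all peaks were simulated with the same spread. Recovery at low counts or for smaller changes was therefore not measured. Alternatives were DESeq2 (1.42.0), 3 other scalings, 2 filters, a replicate block, lane, fewer groups, 2 call rules, 2 windows and leaving libraries out. P-values measure the spread between cultures of 3 mice, and total counts per library limit the precision. Results at a marker list and at 2 peaks near Pycard are not reported here.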

Additional observations from a re-analysis of the deposited data

Results flagged for a closer look

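For 19 pairs of a named peak and a treatment, the LPS response itself differed with the treatment, by the interaction term of the edgeR fit (FDR under 0.05 over all peaks). All 19 differences were negative, that is, the LPS change was smaller with the treatment. The peaks were named for large changes in comparisons that make up this term, which favours a negative sign, so the shared sign is not read as a result. No cause was weighed.

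With (+)-JQ1, the log2 difference of the LPS response was -1.62 at the Nlrp3 peak 26.3 kb from the start (chr11:59380968-59381761) and -1.46 at the exonic Nlrp3 peak chr11:59361492-59362920. Among Aim2 peaks it was -2.30 at chr1:175391553-175392587, -1.13 at the Gm4955 exon (chr1:175421004-175422034), -0.71 at the intronic peak chr1:175379942-175382507 and -0.65 at the start peak (chr1:175350538-175352012). It was -0.79 at the Gsdmd start peak, -0.73 at the Il18 start peak and -1.37 at the Il18 peak chr9:50392620-50395668. Of these 9 calls, 2 were still made with total counts, 5 with loess offsets, 3 without replicate 1, 0 without replicate 2, 6 without replicate 3 and 6 without unstimulated replicate 1.

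With IL-10, the difference was -1.05 at the Nlrp3 peak at -6.8 kb (chr11:59347832-59348629). Among Aim2 peaks it was -1.67 at chr1:175391553-175392587, -1.61 at chr1:175304030-175305114 and -0.98 at chr1:175379942-175382507. It was -0.78 at the Casp1 start peak and -1.26 at the peak past the end of Casp4 (chr9:5337234-5340035), where IL-10 raised the level without LPS. It was -1.0 at the Gsdmd start peak, -0.62 at the Zc3h3 peak near Gsdmd (chr15:75671859-75674264), -1.10 at the Il18 start peak and -1.47 at chr9:50392620-50395668. Of these 10 calls, 8 were still made with total counts, 8 with loess offsets, 8 without replicate 1, 2 without replicate 2, 10 without replicate 3 and 8 without unstimulated replicate 1.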

How the results depend on the processing

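The number of the 153 peaks called kept within 1.5 times its value in most settings. With LPS it was 79, with 46 of the peaks within 25 kb of a start, and 62 to 74 when a replicate was left out. With (+)-JQ1 alone it was 22, with 36 by total counts and 10 by loess offsets, and 4 to 27 without a replicate, the lowest without replicate 2 and 10 without replicate 1. With IL-10 alone it was 19, with 10 by loess offsets, 10 at FDR under 0.01 and 12 within 25 kb of a start, and 1 to 23 without a replicate, 1 without replicate 2 and 5 without replicate 1. Without unstimulated replicate 1, added after the data were seen because that library was the shallowest, the counts were 9 with (+)-JQ1, 6 with IL-10 and 72 with LPS. For LPS and (+)-JQ1 against LPS it was 44, with 25 within 25 kb of a start and 30 to 37 without a replicate. For LPS and IL-10 against LPS it was 48, with 30 at FDR under 0.01, 26 within 25 kb of a start and 24 to 36 without a replicate (24 without replicate 2, 29 without replicate 3). The direct comparison of the pre-treatments gave 23, and 10 to 18 without a replicate. The interaction with (+)-JQ1 gave 18, with 6 by total counts, 11 by loess offsets, 6 at FDR under 0.01, 10 within 25 kb of a start and 1 to 15 without a replicate. The interaction with IL-10 gave 19, with 12 at FDR under 0.01 and 4 to 20 without a replicate. The change at the Nlrp3 start peak with (+)-JQ1 alone reversed to -0.03 with loess offsets. The cause was not tested, except that left-out libraries and a narrower window give fewer libraries and fewer peaks. With the replicate block, pairing libraries of the same number, the 8 counts were 78, 24, 18, 43, 49, 23, 17 and 19 in the order above, and no count moved by over 1.5 times. Peaks at the lowest mean count, 10.2, allow no small change to be seen.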
